A study of Caenorhabditis elegans with 2 samples.

Results

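The 195 regions described here are candidate binding regions of the C34B4.2 fusion protein of Caenorhabditis elegans that lay on an autosome, ranked among the strongest 3000 of the pooled list, and had their summit in the promoter windows of genes on both strands. Promoter windows began 1000 bp upstream of an annotated start of a protein-coding transcript and ended 200 bp past it, and a region was taken when its summit, the base of highest enrichment, fell in a window of at least 1 plus-strand and at least 1 minus-strand gene. They were 195 of 2701 strong autosomal candidates and of 30000 pooled candidates in all. The other strong autosomal candidates were 833 with the summit in promoter windows of one strand and 1673 away from any promoter window. The regions were selected on pooled signal, so their signal and rank are given as a description. The study is ChIP-seq, which sequences DNA crosslinked to a protein, on strain OP552, which carries unc-119(tm4063) III and the transgene wgIs552, a C34B4.2 gene with a C-terminal GFP-FLAG tag. Whole L1 larvae of mixed sex were collected 6 h after they had been synchronized by starvation, itself preceded by bleaching, in 2 biological replicates of 1 group, with no second group to compare. The immunoprecipitation was against GFP per the sample descriptions, although the antibody label names C34B4.2. The larvae were used whole, so cell types are mixed, and what drives the transgene is not given in the sources used here. Signal is in the authors' own unit, whose scale is not given, and read depth is unknown.

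A divergent promoter is the stretch between neighbouring genes that are transcribed away from each other, so that a single bound or accessible region lies upstream of both. In the compact worm genome such pairs are common, and many join housekeeping genes. Worm messages are often trans-spliced, which removes the first part of the transcript, so an annotated start can lie downstream of the place where transcription begins. A summit in such a stretch cannot be assigned to either gene from binding data alone.

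The sequences at the summits of some of the strongest regions show how copies of the short words described below sit in them. Each holds the summit and 50 bases to either side, from the plus strand of WBcel235 (the same sequence as ce11, RefSeq copy), 5′ to 3′. The first 8 are the strongest regions outside one chromosome that was left out of the printing, and the last 4 are further named regions with the word ACGCAG. Capitals mark ACGCAG or GACGCA, on either strand, so that GACGCAG holds both words overlapping and CTGCGTC is its reverse complement.
ant-1.1 and T27E9.2 (chrIII:13463078-13463178): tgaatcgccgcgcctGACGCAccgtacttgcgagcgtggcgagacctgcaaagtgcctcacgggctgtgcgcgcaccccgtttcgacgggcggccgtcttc
atp-2 and C34E10.10 (chrIII:5228117-5228217): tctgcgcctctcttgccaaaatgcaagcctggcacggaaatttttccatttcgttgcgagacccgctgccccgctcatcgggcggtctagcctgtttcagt
Y17G9B.5 and rpl-20 (chrIV:4750020-4750120): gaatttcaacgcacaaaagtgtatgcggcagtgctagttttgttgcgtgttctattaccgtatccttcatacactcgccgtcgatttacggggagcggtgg
Y55F3AR.2 and cct-8 (chrIV:1094318-1094418): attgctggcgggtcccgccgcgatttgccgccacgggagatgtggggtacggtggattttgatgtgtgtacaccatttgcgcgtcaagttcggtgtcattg
tasp-1 and K01G5.10 (chrIII:10759195-10759295): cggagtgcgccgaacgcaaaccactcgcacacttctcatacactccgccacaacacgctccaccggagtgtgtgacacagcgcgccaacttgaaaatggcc
hsp-60 and Y22D7AL.10 (chrIII:1619070-1619170): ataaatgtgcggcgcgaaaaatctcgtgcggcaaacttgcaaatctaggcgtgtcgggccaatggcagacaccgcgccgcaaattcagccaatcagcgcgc
tag-340 and nhl-2 (chrIII:4899858-4899958): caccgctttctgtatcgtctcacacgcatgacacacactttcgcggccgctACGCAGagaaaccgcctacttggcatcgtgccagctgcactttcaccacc
set-16 and drr-2 (chrIII:13643684-13643784): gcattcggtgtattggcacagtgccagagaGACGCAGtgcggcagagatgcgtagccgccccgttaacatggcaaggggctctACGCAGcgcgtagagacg
lin-54 and rpl-12 (chrIV:13240606-13240706): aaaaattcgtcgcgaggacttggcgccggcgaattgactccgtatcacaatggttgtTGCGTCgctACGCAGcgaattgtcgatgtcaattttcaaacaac
hex-3 and fbxb-85 (chrIII:10848975-10849075): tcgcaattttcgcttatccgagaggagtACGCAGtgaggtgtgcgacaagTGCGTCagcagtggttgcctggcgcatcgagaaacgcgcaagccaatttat
F54C9.14 and iff-2 (chrII:8561373-8561473): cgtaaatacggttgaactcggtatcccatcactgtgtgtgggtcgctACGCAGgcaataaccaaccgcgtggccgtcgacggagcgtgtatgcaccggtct
Y57G11C.3 and mrps-7 (chrIV:14767815-14767915): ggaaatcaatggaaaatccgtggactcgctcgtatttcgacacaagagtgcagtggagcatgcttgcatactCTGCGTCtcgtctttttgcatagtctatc

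GC content of these 12 windows ran from 46.5% at Y57G11C.3 and mrps-7 to 68.3% at ant-1.1 and T27E9.2, all above the median of 45.5% over the 195 regions, whose lowest was 19.8%. The strongest region holds GACGCA but not ACGCAG, and the next 5 printed hold neither word. The set-16 and drr-2 window was the only one of the 23 regions with ACGCAG that held it in more than 1 copy.

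The strongest of the regions lay at genes of mitochondrial energy supply. The region at ant-1.1, an adenine nucleotide translocator that exchanges ATP and ADP across the inner mitochondrial membrane, had a signal of 428 in replicate 1 and 437 in replicate 2. Its summit was 35 bp upstream of ant-1.1 and 544 bp upstream of T27E9.2 on the other strand, in a stretch of 579 bp between the starts. The region at atp-2, which encodes subunit beta of ATP synthase, gave 405 and 386, with the summit 250 bp upstream of atp-2 and 283 bp upstream of C34E10.10. These values differed little between the replicates, and the regions ranked first and second in replicate 1. The region at atp-1, subunit alpha of the same enzyme, gave 333 in replicate 1 and 328 in replicate 2. It lay on chromosome I at 12652172 to 12652390, with the summit 1 bp upstream of the atp-1 start and 189 bp upstream of mcrs-1. At vdac-1, which encodes the voltage-dependent anion channel of the outer mitochondrial membrane, and R05G6.5, the values were 155 and 152.

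Ribosomal protein and chaperone genes supplied most of the others at the top. The region between Y17G9B.5 and rpl-20, a protein of the large ribosomal subunit, gave 325 in replicate 1 and 335 in replicate 2. The region between K11H12.8 and rpl-15, also of the large subunit, gave 163 and 149. The region between rps-12, of the small subunit, and ska-3 gave 136 and 170.2. Replicate 1 was higher at one of these and replicate 2 at the others. Among the chaperones, the region at cct-8, a subunit of the cytosolic chaperonin that folds actin and tubulin, gave 253 and 246. Its summit was 448 bp upstream of cct-8 and 173 bp upstream of Y55F3AR.2. The region at hsp-60, the mitochondrial chaperonin, gave 245 and 196, with the summit 622 bp upstream of hsp-60 and 191 bp upstream of Y22D7AL.10. The region at hsp-90, a cytosolic chaperone, gave 136 and 179.6. The last pair of regions leaned to opposite replicates.

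The remaining regions among the 15 strongest were at genes of other kinds. The region at tasp-1 and K01G5.10 gave 201 in replicate 1 and 275 in replicate 2, the largest lean to replicate 2 among the 15 (log2 ratio of replicate 1 to replicate 2 of -0.46). The region at set-16, a histone H3 lysine 4 methyltransferase of the MLL type, and drr-2 gave 167 and 185. The region at nhl-2, a factor of the microRNA pathway, and tag-340 gave 184 and 174. The largest lean to replicate 1 among the 15 was at wbp-4 and F56G4.6 on chromosome I, with 186 and 145 (log2 ratio 0.36). At cap-2, a subunit of the actin capping protein, and gmps-1, the GMP synthase of purine synthesis, the values were 155 and 149. All 15 regions were on the IDR-thresholded list, the authors' list of 267 peaks made with the irreproducible discovery rate method. That list equals the first 267 of the pooled ranking. All 15 summits lay between the closest opposite starts, though the one at hsp-90 lay past a more distant start of that gene. A gene of one of the 26 lists described below was present at 11 of the 15.

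The class of divergent promoters was concentrated at the top of the ranking. It held 195 of 2701 strong autosomal candidates (7.22%, 95% Wilson interval 6.30 to 8.26), beside 3.43% of all 25744 autosomal candidates. Divergent windows cover 2.68% of autosomal bases. In ranks 1 to 267, which are the IDR-thresholded list, 71 of 249 autosomal summits were divergent (28.5%, 23.3 to 34.4). The share was 7.59% (5.80 to 9.86) in ranks 268 to 1000, 5.51% (4.21 to 7.19) in ranks 1001 to 2000 and 2.71% (1.83 to 4.0) in ranks 2001 to 3000. The interval of the last share holds 2.68%, the share of bases covered, and those of the stronger ranks lie above it. From rank 3001 on, the share was 3.91% (3.45 to 4.42), 2.87% (2.53 to 3.24) and 2.43% (2.12 to 2.78) in 3 successive bands. The first of these intervals lies above 2.68% and the others hold it, so the share did not fall steadily with rank.

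Within the strongest 3000, the fall with rank was steeper for divergent than for one-strand promoters. One-strand windows cover 24.4% of autosomal bases, and their share of summits was 47.8% in ranks 1 to 267 and 28.8% in ranks 2001 to 3000. Among summits in any promoter window, 37.4% (30.8 to 44.4) were divergent in ranks 1 to 267 and 8.60% (5.85 to 12.5) in ranks 2001 to 3000. These intervals do not overlap, but they cover counting error only and the difference was not tested. In ranks 3001 to 10000 the divergent part of promoter summits was 12.8% (11.4 to 14.4), so this fall did not go on past rank 3000.

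**Figure D1:**
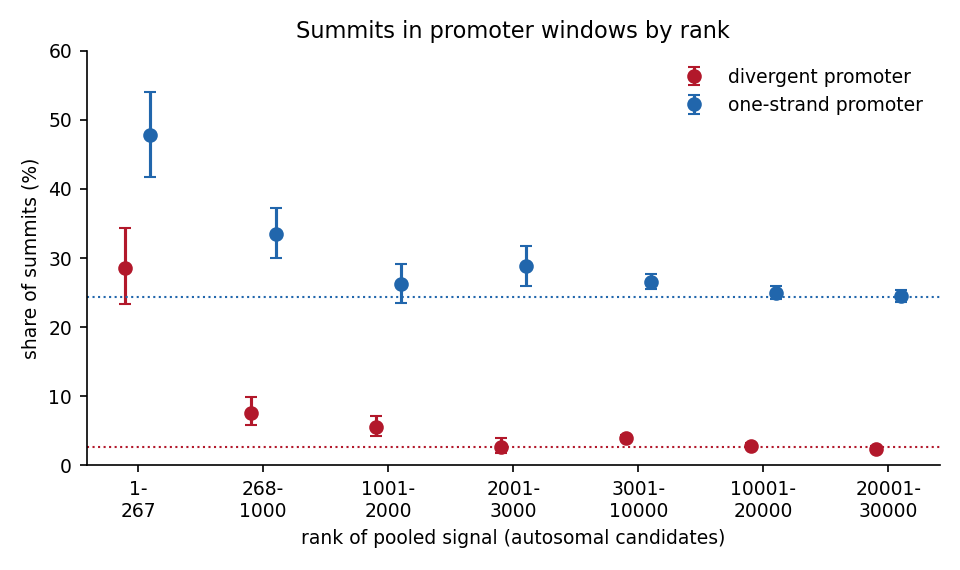
Share of autosomal candidate summits (vertical axis, percent) in divergent and in one-strand promoter windows for 7 bands of pooled rank (horizontal axis), with 95% Wilson intervals. The divergent share is 28.5% in ranks 1 to 267, 2.71% in ranks 2001 to 3000 and 3.91% in ranks 3001 to 10000.

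Of the 195 regions, 71 (36.4%, 30 to 43.4) were on the IDR-thresholded list, beside 9.22% of all strong autosomal candidates. Both the list and the selection rest on the pooled signal, so nothing is read from that share. The other 124 regions are candidates that ranked high and were not thresholded, and they are called strong here by rank alone. The median signal was 164 in the thresholded regions (112 to 868) and 80.2 in the others (69.3 to 112). The 3 weakest regions, at aip-1 and ddx-17, at F22G12.5 and F22G12.4, and at K03H1.12 and K03H1.9, had 69.6, 69.3 and 69.3. The first divergent regions past rank 3000, at K04G7.1 and rnp-7, at rpn-3 and hsp-110, and at kel-1 and tars-1, had 69.1, 69.1 and 68.9. The signal thus passes the limit of the selection without a step, and the genes on either side of it are separated by rank only.

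In most of the strongest regions, the summit lay between the closest opposite starts. Of the 195 summits, 143 (73.3%, 66.7 to 79.0) lay upstream of both closest starts, beside 64.1% of all 883 autosomal divergent candidates. The other regions had the summit just past a closest start, inside that transcript, in 51 cases and where transcripts overlap in 1. Only the closest starts counted, so a summit between them can still lie inside a transcript that starts farther upstream. Among thresholded regions, 67 of 71 were between the starts (94.4%, 86.4 to 97.8), and among the rest 76 of 124 (61.3%, 52.5 to 69.4). The latter share is near the 61.5% (57.8 to 65.0) of the 688 weaker divergent candidates, those past rank 3000. Among thresholded regions with the summit past a closest start were those at mrpl-18 and C14B9.8 and at F27C1.2 and atp-3. In both, the summit was 1 bp past the minus-strand start.

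**Figure D2:**
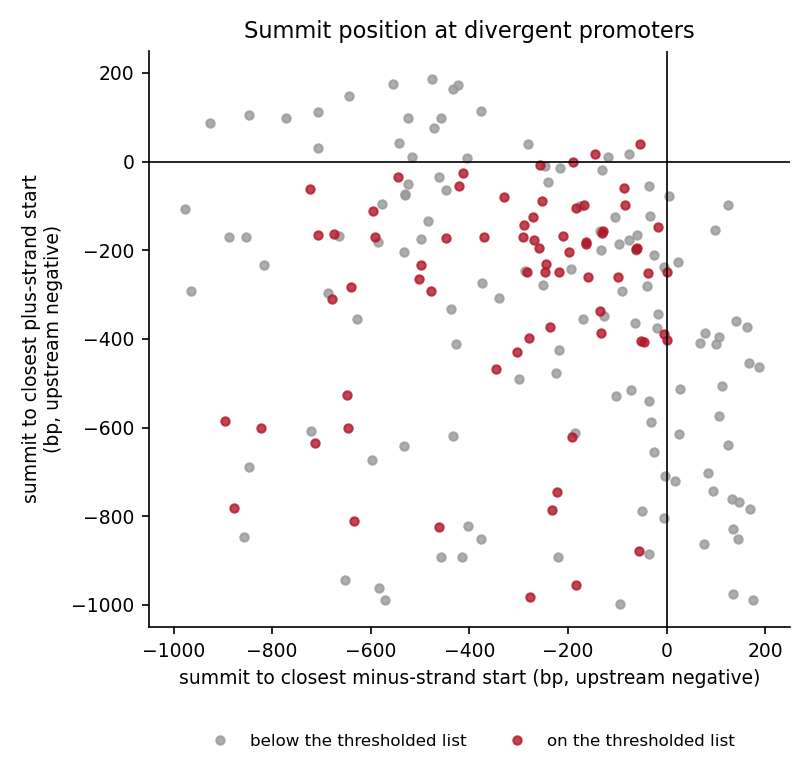
Distance in bp from each summit to the closest minus-strand start (horizontal axis) and the closest plus-strand start (vertical axis), negative upstream, for the 195 regions. Of the 71 thresholded regions, 67 lie in the lower left quadrant, upstream of both closest starts.

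The starts at these regions were closer together than at weaker divergent candidates. The median distance between the closest opposite starts was 533 bp (quartiles 326 and 804, range -27 to 1704, where a negative value means overlapping transcripts). At the weaker divergent candidates it was 722 bp (quartiles 431 and 1037). A distance under 300 bp was found at 23.6% of the regions (18.2 to 30) and at 13.2% of weaker candidates (10.9 to 16). A distance of 1000 bp or more was found at 15.9% and 26.3%. The difference was not tested, and 11 of the 184 divergent windows that held a region held more than 1. The summit was a median of 131 bp from the nearer start and 463 bp from the farther one. Of the 195 regions, 180 were in the windows of 2 genes and 15 in those of 3.

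The regions were unevenly placed along the genome. Chromosome III held 57 of them, or 156 per Mb of divergent window, and chromosome V held 33, or 55.3 per Mb, beside 88.2 per Mb on all autosomes. Chromosomes I, II and IV had 80.5, 73.9 and 97.8 per Mb. Weaker divergent candidates had 364 per Mb on chromosome III and 322 on chromosome V, so their densities were closer to each other. Thresholded regions numbered 24 on chromosome III, 16 on chromosome I, 15 on chromosome IV and 8 each on chromosomes II and V. In all, 6.73% of the 2732 autosomal divergent windows held a region.

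Nearly all regions were found in both replicates, but the weaker ones had unlike ranks. A candidate overlapped the region in both replicates at 184 of 195 (94.4%, 90.2 to 96.8), beside 91.4% of all strong autosomal candidates. In 6 regions the only candidate was in replicate 1 and in 5 it was in replicate 2. The pooled list was made from the same replicates, so this overlap is not independent of the selection. A stricter count, rank within the strongest 3000 of both replicates, was met by 64 of 71 thresholded regions (90.1%, 81.0 to 95.1) and by 32 of the other 124 (25.8%, 18.9 to 34.2), beside 21.6% of all strong autosomal candidates. One-strand candidates had 91.6% and 17.5% in the same split. The split is by pooled signal, which was about the sum of the replicate signals (median ratio 1.00), so it is not independent of these ranks. Replicate summits lay a median of 16 bp apart in the thresholded regions and 58 bp apart in the others.

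The median log2 ratio of replicate 1 to replicate 2 was -0.01 in 69 thresholded regions and 0.35 in 115 others that had a candidate in both. One-strand promoter candidates had -0.07 and 0.33 in the same split. The median over all strong autosomal candidates was 0.32, so the lean to replicate 1 was not particular to the regions. Over the 184 regions, values ran from -1.48 to 1.63. Of the 195 regions, 20 had a ratio beyond 2-fold (10.3%), close to the 10.6% of all strong autosomal candidates. Among thresholded regions, the lowest ratio was at F25H2.6 and ndk-1, a nucleoside diphosphate kinase gene, with 36.5 in replicate 1 and 102 in replicate 2. The regions at scpr-1 and gpap-1, with 38.9 and 91.0, and at F27C1.2 and atp-3, a further ATP synthase subunit gene, with 39.5 and 84.1, came next. These 3 were on chromosome I and rested mostly on replicate 2. The highest ratio was at ekl-4 and Y105E8A.14, with 78.1 and 29.4. The regions at citk-2 and F59A6.11, with 86.5 and 48.4, and at dnj-13, a gene of the DnaJ chaperone family, and F54D5.9, with 98.8 and 63.5, followed. Replicate 1 was higher at each of these, but beyond 2-fold only at ekl-4 and Y105E8A.14.

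**Figure D3:**
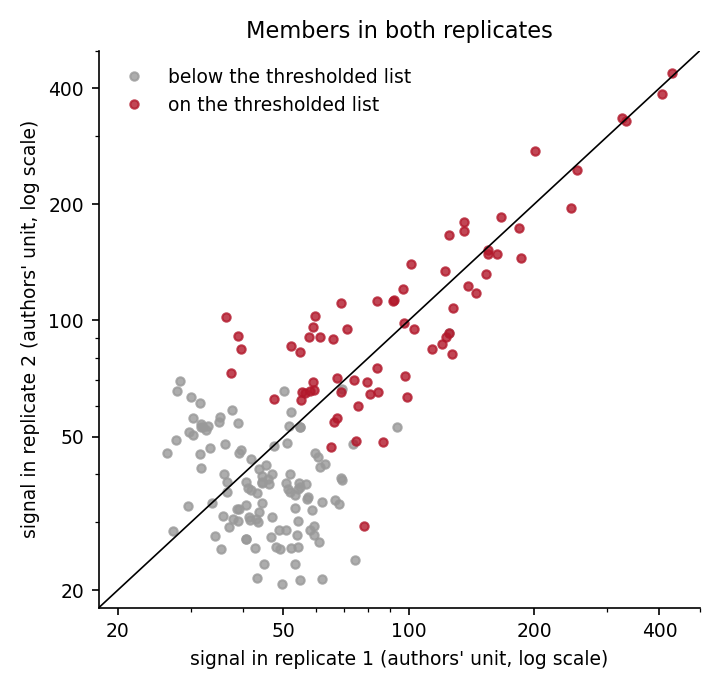
Signal in replicate 1 (horizontal axis) and replicate 2 (vertical axis), in the authors' unit on log scales, of the 184 regions with a candidate in both, with the line of equal values. Thresholded regions spread along the line up to 428 and 437, and the others form a cloud at low signal.

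The median summit was richer in G and C than the DNA around it. Median GC content within 50 bp of the summit was 45.5% (quartiles 39.6 and 51.5), against 36.6% in windows centred 300 bp to either side. It was 50.5% in thresholded regions and 43.6% in the others. At one-strand promoter candidates it was 47.5% and 41.6% for the same split, and at weaker divergent candidates 39.6%. The region of highest rank had 68.3%, while the region of srh-2, a chemoreceptor gene, and icl-1 had 19.8%, the lowest of the 195. In 50 bp bins, the mean GC content fell from 47.55% at the summit to 36.11% at 100 bp upstream or downstream along the chromosome. At one-strand promoters it fell from 43.88% to 38.63% on the left and 39.44% on the right. The 2 groups differ in their thresholded share, 36.4% against 14.3%, and the profile was not split by it. ChIP-seq recovery can depend on GC content, and its part in these values was not tested.

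**Figure D4:**
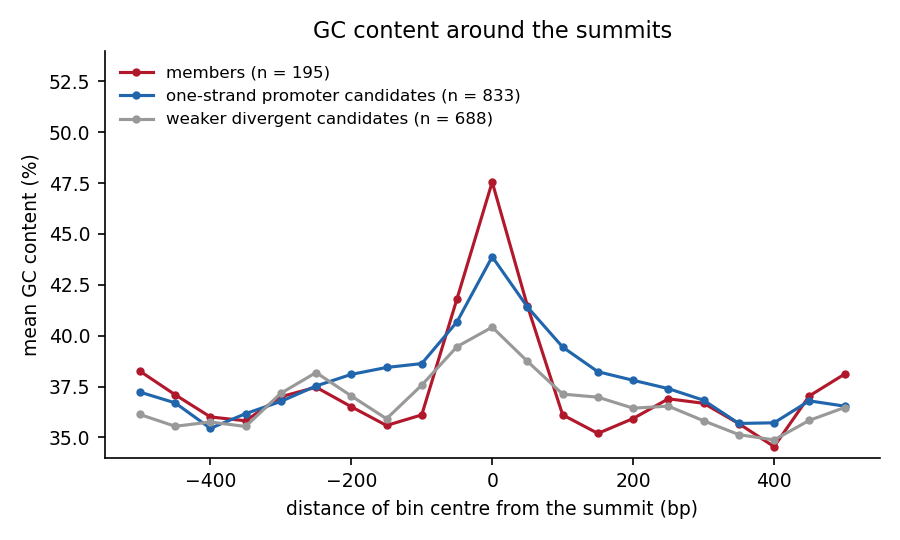
Mean GC content in percent (vertical axis) in 50 bp bins by distance from the summit in bp (horizontal axis) for the 195 regions, 833 one-strand and 688 weaker divergent candidates. The regions peak at 47.55% at the summit and are at 36.11% 100 bp away.

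Short words of 6 bases were then counted. They were ACGCAG, its overlapping neighbour GACGCA, a further overlapping pair of CGCGCA with GCGCAC, and lastly GCGTCA. At least 1 of these 5 words was within 50 bp of 59 of the 195 summits (30.3%, 24.2 to 37). Both strands were searched, and the words of each pair overlap by 5 bases, as does GCGTCA with the reverse complement of GACGCA. The same was true of 11.3% of the flanking windows (8.51 to 14.8), 12.6% of the midpoints of 2525 divergent start pairs and 8.86% of all autosomal candidates. These words came from earlier results on the thresholded list, which includes 71 of the regions, so the thresholded share of 40.8% is a description. In the 124 regions that did not serve to choose the words, 30 held one (24.2%, 17.5 to 32.4), against 14.1% of their flanks (10.3 to 19.0). These intervals overlap. Thresholded one-strand promoter candidates held one at 52.9% (44.0 to 61.7), beside 30.2 to 52.5 for the thresholded divergent ones, and the difference was not tested.

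ACGCAG was within the window at 23 regions (11.8%, 7.99 to 17.1), beside 2.95% of all autosomal candidates, 3.08% of flanks and 3.41% of start pair midpoints. It was at 14 of 71 thresholded regions (19.7%, 12.1 to 30.4), with 1 of 142 flanks. Thresholded one-strand candidates had it at 16.8% (11.2 to 24.5), an interval that overlaps. In the rest it was at 9 of 124 (7.26%, 3.87 to 13.2), with 4.44% of flanks (2.49 to 7.77) and 4.62% of one-strand candidates below the list, and the intervals overlap. The closest copy was a median of 20 bp from the summit and within 20 bp in 12 of the 23. It stood on the strand of the nearer gene in 7 of the 23. The regions with the word included lin-54 and rpl-12, hsr-9 and rps-19, ekl-4 and rps-20, and fbxa-90 and efl-1.

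A further 6 words known from textbooks were searched in the same windows, chosen after the data were seen. CACGTG, the E-box, was at 7 of 71 thresholded regions (9.86%, 4.86 to 19.0) and at 2 of 124 others (1.61%). In thresholded one-strand promoters it was at 2.52% (0.861 to 7.15), an interval that overlaps, and at start pair midpoints at 1.82%. Flanks of the thresholded regions had CACGTG at 2.82% (1.10 to 7.02), which overlaps too. GAGAGA was at 21.1% of thresholded regions (13.2 to 32), at 8.87% of the others, at 4.87% of all flanks and at 6.77% of midpoints. Thresholded one-strand candidates had GAGAGA at 12.6% (7.79 to 19.8), an interval that overlaps. CCGCCC was at 11.3% of thresholded regions (5.82 to 20.7) and 1.61% of the others, with 2.89% of midpoints. For thresholded one-strand candidates the CCGCCC share was 7.56% (4.03 to 13.8), and these intervals overlap too. TATAAA, the core of the TATA box, was at 5.64% of the 195 summits (3.18 to 9.82), at 11.0% of their flanks (8.29 to 14.5) and at 13.4% of midpoints. It was at 6.96% of one-strand summits and 7.39% of all autosomal candidates, so a low share was not particular to the regions. TGATAA, bound by factors of the GATA class, was at 0 of 71 thresholded summits (upper limit 5.13%) and at 8.45% of their flanks (4.90 to 14.2). These intervals overlap. Thresholded one-strand candidates had TGATAA at 5.88% (2.88 to 11.6). GCGGGAA, the last of the 6, was at 1 of 71 thresholded regions (1.41%) and at 5 of 124 others (4.03%), with 0.769% of all flanks and 1.31% of midpoints. Summits and flanks differ in GC content as given above, and its part in these shares was not tested. A match is only the presence of these letters.

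The 195 regions lay in the promoter windows of 381 genes, of which 119 had a sequence name only. Those 381 are 6.95% of the 5485 autosomal genes that have a divergent window. Genes of the 26 lists by family or pathway were present at 100 regions (51.3%, 44.3 to 58.2), against 41.4% of weaker divergent candidates (37.8 to 45.1). Of 13 lists with at least 3 genes hit, 8 had an interval wholly above 6.95%, 4 held it and 1 was wholly below. Neighbouring genes share a summit, so the genes of a list are not independent, and the lists were chosen with earlier results known. The lists match genes by name, so a list can leave out genes of its kind or take in others.

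Of 53 cytosolic ribosomal protein genes with a divergent window, 18 had a region (34%, 22.7 to 47.4), and 11 had a thresholded one. They encode proteins of the large subunit, such as rpl-20, rpl-15 and rpl-12, and of the small subunit, such as rps-12, rps-1 and rps-19. The region at rps-1 gave 139 in replicate 1 and 123 in replicate 2, and that at rps-19 gave 92.3 and 113. The ribosomal gene had the nearer of the starts in 10 of 18. In other lists described below, the list gene had it in 4 of 10 (heat shock proteins and chaperonins), 3 of 9 (DNA replication and repair) and 4 of 6 (respiratory chain and ATP synthase). Mitochondrial ribosomal protein genes had 6 of 30 (20%, 9.51 to 37.3), led by mrps-7, with 83.8 and 75.2, and mrpl-18, with 59.0 and 69.2. Translation factors had 5 of 23 (21.7%, 9.66 to 41.9). Among them were eef-2, the elongation factor that moves the ribosome along the message, with 128 and 108, and iff-2, an eIF5A gene, with 68.8 and 111. The replicates leaned opposite ways at these. Of tRNA synthetases only ears-2 was hit, of 15.

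Heat shock proteins and chaperonins had 10 of 37 (27.0%, 15.4 to 43.0), of which 7 were thresholded. Beside those named above were cct-1, a further chaperonin subunit, with 91.9 in replicate 1 and 112 in replicate 2, and enpl-1, the endoplasmic reticulum member of the Hsp90 family, with 80.8 and 64.4. The list of respiratory chain and ATP synthase genes had 6 of 32 (18.8%, 8.89 to 35.3), namely atp-2, atp-1, atp-3, nduf-2.2, cyc-2.1 and cox-6B. It left out ndua-2 and nduc-2, complex I genes by name, whose windows also held a region. The small list of mitochondrial carriers and import had 2 of 11, ant-1.1 and tim-1. It took in tim-1 by its name only, and tim-1 is not an import gene.

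Genes that act on chromatin and DNA made up a further group. Chromatin and histone modifiers had 10 of 35 (28.6%, 16.3 to 45.1), of which 6 were thresholded. The strongest were set-16 and lin-53, a histone-binding RbAp48 protein gene, with 125 in replicate 1 and 167 in replicate 2. DNA replication and repair had 9 of 43 (20.9%, 11.4 to 35.2), led by lig-4, a DNA ligase of end joining, in the region between C07H6.2 and cux-7, with 122 and 134. Next was top-2, a type II topoisomerase gene, with 37.4 and 73.3, where replicate 2 was higher. The replication licensing genes mcm-3, orc-1 and cdc-6 were hit only by regions below the thresholded list.

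The intervals of the RNA lists given here hold 6.95%, the share over all genes, and that of the secretory pathway lies above it. RNA polymerase subunits and general factors had 4 of 25 (16%, 6.4 to 34.7), led by taf-4, a TFIID subunit, with 119.9 and 86.7 in replicates 1 and 2. Mediator subunits made up the other 3, led by mdt-19 beside apb-1, with 79.3 and 69.4. Splicing and snRNP proteins had 4 of 33 (12.1%, 4.82 to 27.3), none of them thresholded. The strongest were prp-40, with 58.0 and 28.6, and snr-7, an Sm protein gene, with 49.1 and 25.6. Replicate 1 was higher at both. RNA decay, piRNA and small RNA factors had 4 of 43 (9.30%, 3.68 to 21.6). The secretory pathway had 8 of 54 (14.8%, 7.70 to 26.6), led by trap-3 and sec-61.B, of the complexes at the protein-conducting channel of the endoplasmic reticulum. Next was sec-61.A, of the channel itself, which shares its region with rps-18 and gave 57.9 and 65.6.

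Large receptor and substrate-binding families were rarely hit. Chemoreceptor-type G protein-coupled receptor genes had 4 of 295 (1.36%, 0.529 to 3.43), the only one of the 13 lists with at least 3 genes hit whose interval lay wholly below 6.95%. The strongest was sri-5, in a region shared with rsr-1, a gene of the SRm160 splicing coactivator type, with 114 and 84.1 in replicates 1 and 2. Next was srh-2 beside icl-1, with 73.6 and 47.8. F-box and BTB families had 4 of 143 (2.80%, 1.09 to 6.97), led by fbxb-85 beside hex-3, with 84.0 and 112. C-type lectins had 0 of 83 (upper limit 4.42%), and cytochrome P450, UGT and GST enzymes 0 of 46 (upper limit 7.71%). The interval of the enzymes thus holds 6.95%, as does that of the F-box and BTB families. Histone genes, of which many core ones stand in divergent pairs, had 1 of 65 (1.54%, 0.272 to 8.21), the H2A.Z variant htz-1. Collagens had 1 of 48 (2.08%, 0.369 to 10.9). The intervals of histones and collagens also hold 6.95%. The other lists had 1 or 2 genes hit, with 2 of 45 for nuclear hormone receptors, 2 of 34 for ubiquitin and SUMO enzymes, 2 of 27 for the nuclear pore, 2 of 16 for neuropeptides, and 1 of 24 for the proteasome. The vacuolar ATPase had 1 of 9, and homeobox and bHLH factors 1 of 13.

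**Figure D5:**
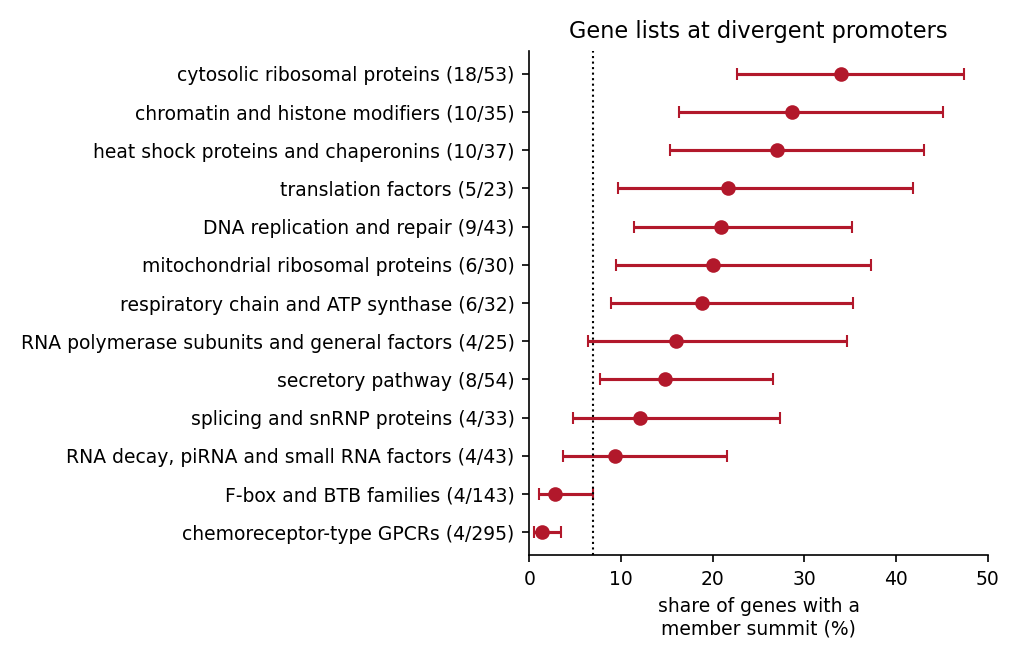
Share of genes with a region, in percent of the genes that have an autosomal divergent window (horizontal axis), with 95% Wilson intervals, for the 13 lists with at least 3 genes hit. The dotted line is 6.95%, the share over all 5485 genes, and cytosolic ribosomal proteins lie farthest to the right at 34%.

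At 17 regions, list genes stood on both strands. The strongest was that of lin-54, a DNA-binding subunit of the DREAM repressor complex, and rpl-12, with 145 in replicate 1 and 118 in replicate 2. Its summit was 5 bp upstream of rpl-12 and 388 bp upstream of lin-54. The region of set-21 and rpl-7A gave 139.7 in replicate 2 and less in replicate 1, at a log2 ratio of -0.47. That of trap-3 and sec-61.B, both of the secretory pathway, gave 97.6 and 98.6. The region of ekl-4 and rps-20 gave 58.8 and 95.9, and that of fbxa-90 and efl-1, an E2F-type factor gene, 67.2 and 71.0. Of these 5, the region of ekl-4 and rps-20 leaned most to replicate 2.

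Small RNA genes were about as frequent near these summits as near other strong ones. A small RNA gene lay within 200 bp of 8 of the 195 summits (4.10%, 2.09 to 7.89), beside 3.70% of all strong autosomal candidates. The strongest was at Y75B8A.23 and tim-1, beside sls-2.8, with 125 in replicate 1 and 92.6 in replicate 2. The annotation classes sls-2.8 as an snRNA gene, and by its name it is a spliced leader RNA gene. Next were klc-1 and let-70 beside the snoRNA gene M7.15, with 73.8 and 69.9, and rps-26 and tmem-107 beside the snoRNA gene F39B2.14, with 52.2 and 85.7. The microRNA gene cel-mir-354 lay at the ekl-4 and Y105E8A.14 region. The microRNA gene cel-mir-5549 lay at rfc-4, a clamp loader subunit gene, and eef-1A.1, an elongation factor gene, where replicate 1 had 82.4 and replicate 2 had no candidate. The last of these was rank 267, the weakest thresholded peak.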

How the data were processed

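Per the descriptions deposited beside the lists, the authors deposited 30000 candidate peaks and background regions for each of 2 replicates and for the pool, as input to the irreproducible discovery rate (IDR) method, and 1 IDR-thresholded list of 267 peaks. The sources used here do not give the aligner, peak caller, IDR threshold or signal scale. The deposited signal per peak is the authors' own value and was used to rank and describe candidates; depth is unknown, so single values carry no interval. The thresholded peaks were the first 267 of the pooled ranking. In the ce11 lists used, 0 peaks ran past a chromosome end, and replicate summits coincided in 179 of 30000 candidates, so the lists were taken as 2 replicates.

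Here, summits were assigned to starts of Ensembl release 115, gene starts on both strands giving the divergent class, with Python 3.11.15, NumPy 2.4.6 and SciPy 1.17.1. A replicate's value is that of its strongest candidate overlapping the region. Shares carry 95% Wilson intervals, which cover counting error only, and a share of 0 is given with the upper limit of its interval. No test was run, since there is 1 group. Of the procedures, the assignment of summits to promoter windows and the word search were tested on simulated data. The regions, lists and words were chosen with earlier results of these data known. Genes are named by a rule: the 15 strongest regions, the 2 strongest of each list with at least 3 genes hit, the 5 strongest with list genes on both strands or a small RNA gene, the 3 regions on either side of the rank limit, and the 3 highest and lowest replicate ratios. Other genes were named as examples of their list after their values were seen.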

Additional observations from a re-analysis of the deposited data

How the results depend on the processing

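Of 63 alternative values for 9 results, 46 stayed within the 95% interval of the reported value (Wilson for shares, order statistics for medians), among them those from each replicate's list alone. Only these values were recomputed, and their comparators only for ACGCAG. Ranks 1 to 1000 gave a divergent share of 13.3%, 80.2% between the starts, 58.7% thresholded, 58.7% at a list gene and a median GC content of 48.5%. Ranks 1 to 5000 gave a share of 6.10% and 26.0% thresholded. A window of 500 bp upstream to 100 bp downstream gave a share of 3.55%, 84.4% between the starts, 50% thresholded, a median GC content of 48%, a median log2 replicate ratio of 0.05 and a median of 388 bp between starts, which the narrower window limits by construction. Within 25 bp of the summit, ACGCAG was at 6.67% of regions (flanks 1.28%) and at 3.23% of those below the thresholded list (flanks 2.02%), and median GC content was 49%. Within 100 bp, GC content was 41.8%, and ACGCAG was at 11.3% of regions below the list and 10.5% of flanks. Other causes were not tested. No paired analysis was possible because there is only 1 group. Unknown depth limits every signal value.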
